A study of Mus musculus with 5 samples.

Results

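Hoxa9 binding without C/EBPα was examined inside chromatin marked by H3K4me1 in mouse bone marrow progenitors. Members were the peaks of the Hoxa9 list with 0 bp in common with any C/EBPα peak, at least 1 bp in common with an H3K4me1 region and 0 bp in common with any H3K27me3 region. The rule was met by 1894 of 6578 Hoxa9 peaks, or 28.8% (95% exact Clopper-Pearson interval 27.7 to 29.9, which like all intervals here covers counting error only). The members were thus chosen by the called positions of peaks and regions in the 4 lists, and no tag number, fold enrichment or score entered the choice beyond the caller's own threshold. Limiting the Hoxa9 list to a p score of 100 or more, on the caller's scale of 10 times the −log10 p-value, left 874 members. Taking the upper 50% of every list by that score gave 1173. These are not a subset of the 1894, because dropping weaker C/EBPα and H3K27me3 calls admits Hoxa9 peaks that overlap them. The 1894 members made up 66.8% of the 2836 Hoxa9 peaks without a C/EBPα call. Chromatin immunoprecipitation followed by sequencing was used, with 1 library for each of Hoxa9, C/EBPα, H3K4me1 and H3K27me3 and 1 input library, which was not used here. All libraries came from the same kind of cell: progenitors of C57B6 bone marrow, depleted of lineage-positive cells, carrying the retroviruses MIGR1-HA-Hoxa9 and MIGR1-Flag-Meis1 and grown with IL3. Hoxa9 was precipitated by anti-HA, so the peaks are those of the introduced, tagged protein and not of the cell's own Hoxa9, in cells that also carry introduced Meis1. The other antibodies were anti-C/EBPα, anti-H3K4me1 and anti-H3K27me3.

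Hoxa9 is a homeodomain transcription factor that maintains immature blood cells and, with its partner Meis1, transforms them when overexpressed. C/EBPα belongs to the basic leucine zipper family and drives granulocyte and monocyte differentiation, binding many myeloid enhancers beside other factors. H3K4me1 is a histone mark laid down at enhancers, active or primed, and H3K27me3 is the mark that Polycomb complexes place on repressed genes.

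With 1 library per protein no value has a replicate error, and no test between classes of peaks was made: shares carry counting intervals and medians carry ranges, as descriptions of these lists, in which peaks are not replicates. Summed over peaks, the Hoxa9 list contained 285488 tags and the C/EBPα list 1408867. A called Hoxa9 peak had at least 17 tags and a called C/EBPα peak at least 15. A member therefore had no called C/EBPα peak, which does not show that C/EBPα was absent. Peaks are given by mm9 coordinates only, since no annotation of that build was used here.

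Members were compared with the 3462 Hoxa9 peaks that overlapped C/EBPα in H3K4me1 regions and with the 883 Hoxa9-only peaks outside H3K4me1, both groups likewise free of H3K27me3. Members lay between these groups in strength. Their median fold enrichment, a linear ratio given by the authors' peak caller, was 6 (quartiles 4.90 and 7.58), against 6.86 in peaks with C/EBPα and 5.15 in Hoxa9-only peaks outside H3K4me1. The median member held 29 tags, against 40 in peaks with C/EBPα and 18 outside H3K4me1. The member median was 45 tags with the limit on the score and 48 tags in the upper 50% of the lists. Both settings remove weak Hoxa9 peaks. The upper 50% also drops weaker C/EBPα calls, which admits Hoxa9 peaks that overlap them. Tags per kb of peak had medians of 47.3 in members, 53.6 in peaks with C/EBPα and 41.7 in Hoxa9-only peaks outside H3K4me1. The ranges of the groups overlapped throughout, with member fold enrichments from 2.80 to 38.33.

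Strong members were present but uncommon. A fold enrichment of 10 or more was reached by 210 members, or 11.1% (9.71 to 12.6), against 24.1% of peaks with C/EBPα and 1.36% of Hoxa9-only peaks outside H3K4me1, while 16.7% of the whole Hoxa9 list passed it. At the weak end 203 members, 10.7%, had the minimum of 17 tags, as did 5.55% of peaks with C/EBPα and 38.2% of Hoxa9-only peaks outside H3K4me1. The p score had a median of 91.8 in members, 143 in peaks with C/EBPα and 59.4 outside H3K4me1. No member reached the score of 3100 that several peaks of the list share, so ranks among members are free of those ties. The caller gave a false discovery rate of 0 to 61.3% of members, 77.4% of peaks with C/EBPα and 22.0% of Hoxa9-only peaks outside H3K4me1.

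Member peaks had a median width of 627 bp (quartiles 479 and 768, range 338 to 1644). Peaks with C/EBPα had a median of 735 bp and Hoxa9-only peaks outside H3K4me1 a median of 446 bp. Width and strength moved together along the list: members in the lowest of 5 groups by the score of the whole Hoxa9 list had a median width of 446 bp, and those in the highest group 955 bp. A wider peak offers more bases in which another peak can overlap it, and width is thereby tied to the rule.

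**Figure D1:**
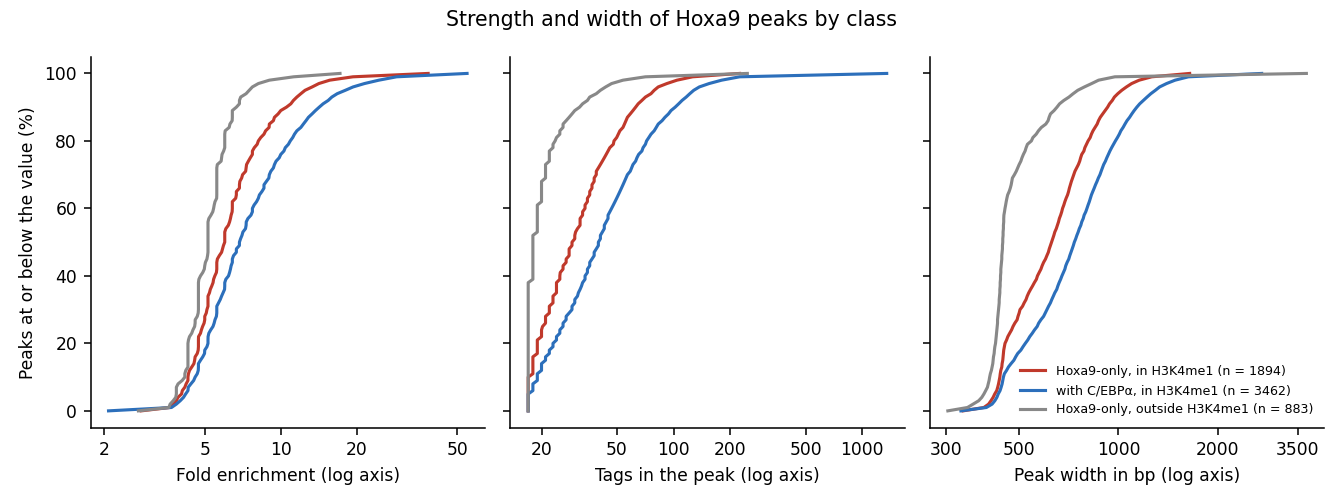
Cumulative share of peaks (percent, vertical axis) at or below each fold enrichment, tag number and width in bp (log axes), for members in red, Hoxa9 peaks with C/EBPα in H3K4me1 in blue and Hoxa9-only peaks outside H3K4me1 in grey. The red curves lie between the others, with medians of 6 fold, 29 tags and 627 bp.

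Members were found at all strengths of Hoxa9 binding and were scarcest among the strongest peaks. From the lowest to the highest of the 5 score groups they formed 30.0%, 33.2%, 32.4%, 29.2% and 19.1% of the Hoxa9 peaks in the group. Peaks with C/EBPα in H3K4me1 formed 31.2%, 37.7%, 55.2%, 62.7% and 76.4% of the same groups, and Hoxa9-only peaks outside H3K4me1 formed 32.3%, 22.8%, 7.45%, 3.57% and 0.988%. Strong peaks were also wide, and a wide peak more readily shares 1 bp with a C/EBPα peak or an H3K4me1 region. How far width accounts for these trends was not tested. Among strong Hoxa9 peaks with neither C/EBPα nor H3K27me3 nearly all were therefore members: the highest group held 252 members and 13 Hoxa9-only peaks outside H3K4me1.

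The H3K4me1 region of a member was taken as the one with the longest common stretch. These 1868 regions were wider than most of the list: the median member sat in a region of 1877 bp (quartiles 1019 and 3167), against 2304 bp for peaks with C/EBPα and 768 bp over all 100189 H3K4me1 regions. Regions narrower than 1000 bp held 24.3% of members and 16.6% of peaks with C/EBPα, and made up 62.0% of all regions. Regions of 5000 bp or more held 10.1% of members and 14.4% of peaks with C/EBPα, and made up 1.77% of all regions. With H3K4me1 regions joined across gaps of up to 1000 bp the median region of a member was 3455.5 bp. A wide region has more bases that a peak of any kind can touch, and how far that accounts for these widths was not tested.

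The mark was also denser in these regions, and the difference was smaller between regions of like width. Regions of members had a median of 52.6 H3K4me1 tags per kb, against 56.7 for peaks with C/EBPα and 40.6 over all regions. In regions of 500 bp and more but under 1000 bp the medians were 40.6 tags per kb with members and 39.0 without any Hoxa9 peak. In those of 3000 to 5000 bp (upper bounds not included, here and below) they were 62.8 tags per kb both with members and without a Hoxa9 peak. Within each of 6 width classes the medians with members and without Hoxa9 lay inside each other's quartiles. Fold enrichment of the mark was slightly higher with members at every width, for example 6.39 against 5.83 without Hoxa9 in regions of 1000 to 2000 bp and 8.47 against 8.15 at 3000 to 5000 bp.

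Most members lay well inside the mark. The whole peak was covered in 1124 members, 59.3% (57.1 to 61.6), against 57.9% of peaks with C/EBPα. The summit was covered in 1621 members, or 85.6% (83.9 to 87.1), against 81.8% (80.5 to 83.1) of peaks with C/EBPα and 83.3% of all Hoxa9 peaks that touched H3K4me1. For 1606 of these the summit was in the region with the longest common stretch, at a median of 653 bp from the nearer edge (quartiles 234 and 1110). On a scale from 0 at an edge to 1 at the centre of the region the median was 0.64, and it was 0.66 for peaks with C/EBPα. The innermost 20% of the region held 29.6% of these member summits (27.4 to 31.9) and the outermost 20% held 13.0% (11.4 to 14.8), where an even spread would give 20%. The corresponding shares for peaks with C/EBPα were 31.8% and 16.2%. The median was highest in regions of 2000 to 3000 bp, at 0.74, and was 0.57 in regions of 5000 bp or more. In regions of 500 to 1000 bp it was 0.44, nearer to the edge than to the centre. The H3K4me1 summit lay a median of 461 bp from the Hoxa9 summit in members and 599 bp away in peaks with C/EBPα. It was within 200 bp in 378 of 1894 members, or 19.96%, and in 399 of 3462 peaks with C/EBPα, or 11.5%. Regions of members were narrower, with a median of 1877 bp against 2304 bp, which limits how far the H3K4me1 summit can lie. These distances were not matched for region width, and how far it accounts for the contrast was not tested.

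Summits outside the mark took either of 2 forms. In 90 members, 4.75%, the peak bridged a pair of H3K4me1 regions with its summit in the uncovered stretch between them, which had a median length of 245 bp (range 45 to 865). Such bridging summits were found at 9.73% of peaks with C/EBPα. In 183 members, 9.66%, the summit lay past the edge of a single region, at a median of 117 bp from it and at most 431 bp. Bridging members had higher medians, with a fold enrichment of 6.98 and 38 tags, against 5.91 and 29 tags where the summit was covered. Members past an edge had 6 and 29 tags. Median peak widths were 724 bp in bridging members, 623 bp where the summit was covered and 617 bp past an edge. A peak must span the uncovered stretch to bridge 2 regions, which favours wide peaks. Peaks with C/EBPα were also wider than members, with medians of 735 and 627 bp. How far width accounts for these contrasts was not tested.

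The coverage of the mark around summits was compared between score groups. The rule sets part of it: a member must touch H3K4me1, and in the lowest score group, with a median width of 446 bp, points 400 bp from the summit mostly lie outside the peak, while in the highest group, with 955 bp, many lie inside it. In members of the lowest score group, 88.5% of summits were covered, with 80.2% and 79.4% at the points 400 bp to the lower and higher coordinate. In members of the highest score group the summit was covered in 80.6% (75.1 to 85.3) and the same flanking points in 87.3% and 91.7%. Peaks with C/EBPα in the highest group had 75.8% at the summit (73.1 to 78.4) and 88.0% and 89.3% at the flanks. In the lowest group of peaks with C/EBPα the summit was covered in 367 of 408 and the flanks in 88.7% on both sides. In the highest group coverage was lower at the summit than at both flanking points, in members and in peaks with C/EBPα. How much of the contrast between score groups comes from peak width was not tested.

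**Figure D2:**
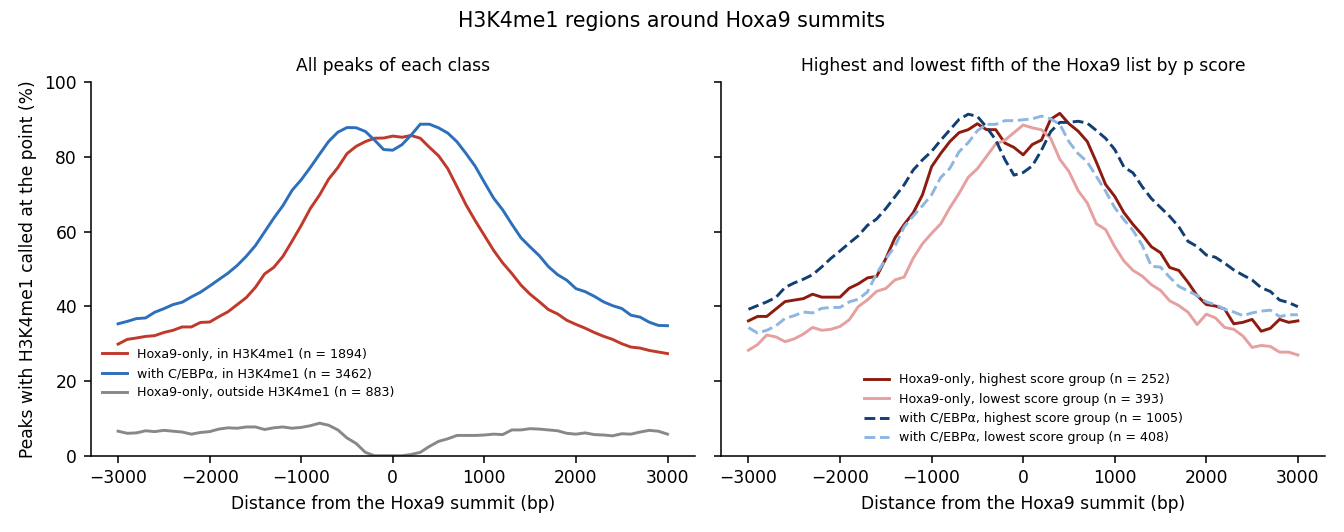
Share of Hoxa9 peaks (percent, vertical axis) with an H3K4me1 region called at each point within 3000 bp of the Hoxa9 summit (horizontal axis). Left, all peaks of each class, with members at 85.6% at the summit. Right, the highest and lowest of 5 groups by p score, where coverage falls to 80.6% at the summit of the strongest members and peaks at 88.5% at the weakest.

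The next question was where C/EBPα stood relative to members. The nearest C/EBPα summit was a median of 8264 bp from the member summit (quartiles 3056 and 21455, range 329 to 2581573 bp). Hoxa9-only peaks outside H3K4me1 had a median of 29841 bp. Since the rule removes C/EBPα peaks that touch the Hoxa9 peak, the fair counterpart in peaks with C/EBPα is the nearest C/EBPα summit from a peak other than those overlapping it, and there the median was 7259 bp. The member median depended on the definition. It was 4358 bp if only a C/EBPα summit within 200 bp disqualified a peak, where C/EBPα peaks that overlap the Hoxa9 peak also count. It was 14566 bp in the upper 50% of the lists, where the C/EBPα list is cut as well. Counted over C/EBPα peaks that do not overlap the Hoxa9 peak, a C/EBPα summit lay within 2000 bp of 16.7% of members. The share was 15.7% for peaks with C/EBPα and 4.64% for Hoxa9-only peaks outside H3K4me1. Within 10000 bp the shares were 54.7% of members, 58.5% of peaks with C/EBPα and 25.3% outside H3K4me1, against 51.7% of the whole Hoxa9 list. A total of 62 members, 3.27%, were more than 100000 bp from any C/EBPα summit, as were 2.86% of peaks with C/EBPα and 24.5% of Hoxa9-only peaks outside H3K4me1.

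The density of C/EBPα summits was counted over all C/EBPα peaks, including those that overlap the Hoxa9 peak. At 500 to 1000 bp it was 44.9 per Mb around members, against 95.03 around peaks with C/EBPα and 19.3 around Hoxa9-only peaks outside H3K4me1. The rule takes part in this contrast, since an overlapping C/EBPα peak can have its summit at that distance and is barred for members. With only C/EBPα peaks that do not overlap the Hoxa9 peak, a summit lay within 1000 bp of 4.70% of members. The share was 3.73% for peaks with C/EBPα and 2.15% for Hoxa9-only peaks outside H3K4me1. C/EBPα summits numbered 65.5 per Mb at 1000 to 2000 bp from member summits and 67.7 per Mb at that distance from peaks with C/EBPα. At 10000 to 20000 bp they numbered 35.9 per Mb around members and 38.3 around peaks with C/EBPα, and at 100000 to 200000 bp 21.2 and 21.8. Around Hoxa9-only peaks outside H3K4me1 the values were 13.6, 17.3 and 14.4 per Mb at these 3 longer distances, and the average of the C/EBPα list over the span of the lists was 10.3 per Mb. Windows of neighbouring peaks overlap and count some summits repeatedly. Inside 500 bp members had 2.64 per Mb and peaks with C/EBPα 952 per Mb, values that the rule sets.

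**Figure D3:**
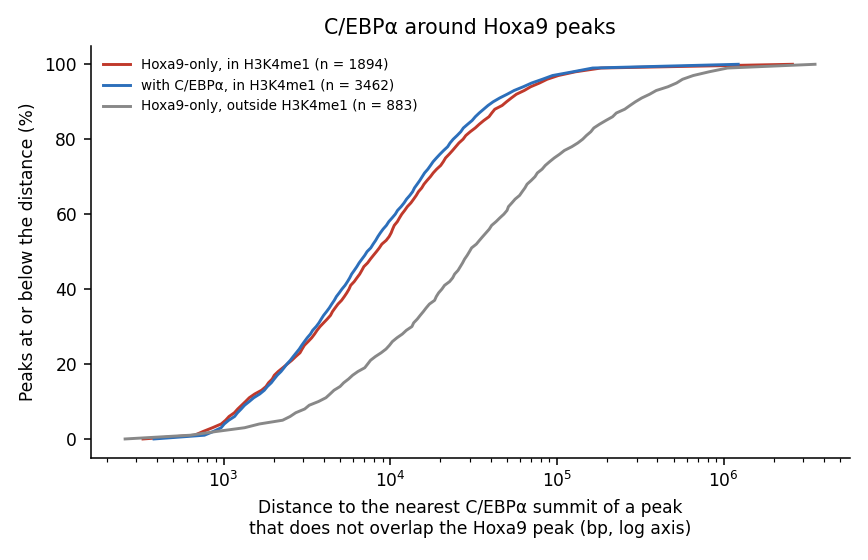
Cumulative share of Hoxa9 peaks (percent, vertical axis) at or below each distance to the nearest C/EBPα summit of a peak that does not overlap the Hoxa9 peak (bp, log axis), in 3 classes. The curves of members (red, median 8264 bp) and peaks with C/EBPα (blue, 7259 bp) run close together, and Hoxa9-only peaks outside H3K4me1 (grey, 29841 bp) lie to the right.

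C/EBPα sat elsewhere in the same H3K4me1 region in 328 of 1894 members, a share of 17.3% (15.6 to 19.1). A C/EBPα peak counted if it had at least 1 bp in common with the region, wherever its summit lay. The share was 32.7% with H3K4me1 regions joined across gaps of up to 1000 bp. If only a C/EBPα summit within 200 bp disqualified a peak, 37.5% had a C/EBPα peak touching the region. That value includes C/EBPα peaks that overlap the Hoxa9 peak itself, so it is not a share with C/EBPα elsewhere. Over all H3K4me1 regions 19.9% held a C/EBPα peak. Of all Hoxa9 peaks that touched H3K4me1, 18.6% had a C/EBPα peak elsewhere in the region, and of those with C/EBPα of their own 19.6% (18.2 to 20.9). Within the regions of members, 254 members had 1 C/EBPα peak, 57 had 2, 13 had 3, 3 had 4 and 1 had 5. The share moved little with Hoxa9 strength, being 19.1%, 18.0%, 16.9%, 14.6% and 18.3% from the lowest to the highest score group, with overlapping intervals.

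It moved strongly with the width of the region. Counted by region, C/EBPα was present in 0 of 148 member regions narrower than 500 bp, with an upper bound of 2.46%, in 6.36% of those of 1000 to 2000 bp, in 34.0% of those of 3000 to 5000 bp and in 68.1% of those of 5000 bp or more. H3K4me1 regions without a Hoxa9 peak had 6.40%, 22.7%, 52.6% and 68.4% in the same classes. C/EBPα was present in 318 of the 1868 member regions, an interval of 15.3% to 18.8%, against 32.0% in regions without Hoxa9 once their width classes are weighted as in member regions. The rule takes part in this gap, because a C/EBPα peak under the Hoxa9 peak disqualifies the member, and in a narrow region the Hoxa9 peak fills much of the space. In the same 4 classes member regions thus had 0%, 6.36%, 34.0% and 68.1%, against 1.29%, 5.11%, 27.3% and 59.5% in regions of peaks with C/EBPα, where only C/EBPα peaks elsewhere in the region count.

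**Figure D4:**
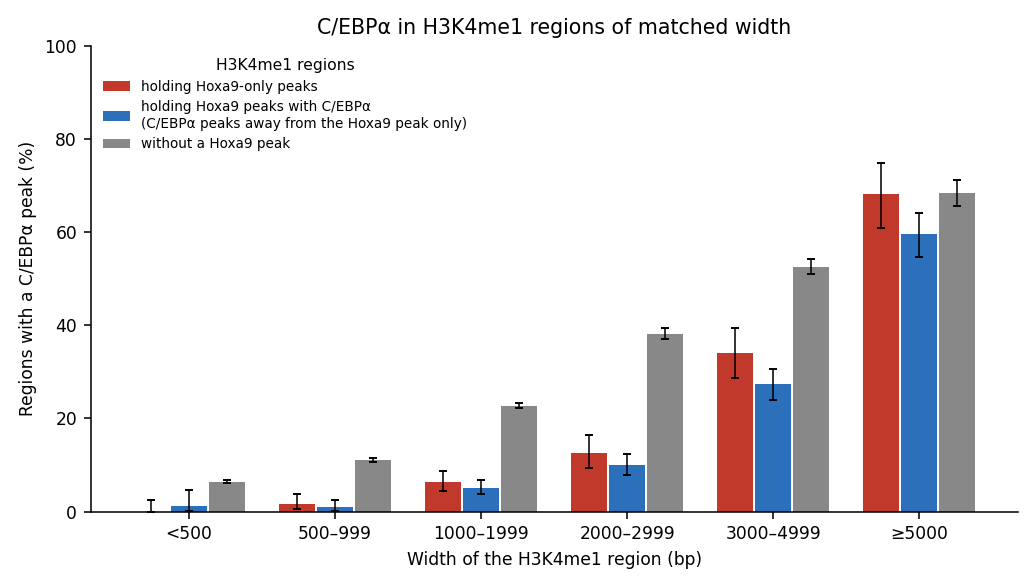
Share of H3K4me1 regions (percent, vertical axis) with a C/EBPα peak, by width of the region in bp (horizontal axis). Bars stand for regions holding members (red), regions holding Hoxa9 peaks with C/EBPα, where only C/EBPα peaks away from the Hoxa9 peak count (blue), and regions without Hoxa9 (grey), with 95% exact intervals; in the widest class red and grey reach 68.1% and 68.4%.

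The 328 members that shared their region with C/EBPα sat in wide, dense regions. Their regions had a median width of 4423 bp and 64.4 H3K4me1 tags per kb, against 1594 bp and 50.4 tags per kb for the 1566 members without C/EBPα in the region. The densities were not matched for width. Regions of 3000 to 5000 bp without a Hoxa9 peak had a median of 62.8 tags per kb. The Hoxa9 peaks themselves had similar medians, 5.85 fold and 28 tags where C/EBPα shared the region and 6 fold and 29 tags where it did not. The nearest C/EBPα peak touching the region had its summit a median of 1590 bp from the Hoxa9 summit (quartiles 1059 and 2379, range 433 to 20544). A median of 888 bp separated the edges of the peaks. The C/EBPα summit itself lay inside the region in 278 of the 328. In 107 of the 328 the edges were less than 500 bp apart. Where both summits were inside the region, in 257 members, the Hoxa9 summit was nearer to the centre in 124 and the C/EBPα summit in 133. The C/EBPα peaks in question had a median fold enrichment of 8.94 and 45 tags, against 7.74 and 35 tags over the whole C/EBPα list. These peaks were limited to those touching an H3K4me1 region, which the whole list was not, and no matched set was compared. In 89 of the 328 members, 27.1%, the nearest C/EBPα peak in the region overlapped another Hoxa9 peak. That share was counted per member, and the share over the whole C/EBPα list was not computed.

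Some regions held several Hoxa9 peaks. Another Hoxa9 peak touched the region of 158 members, 8.34% (7.14 to 9.68), against 9.53% of peaks with C/EBPα and 9.00% of all Hoxa9 peaks that touched H3K4me1. The member share was 17.6% with regions joined across gaps of up to 1000 bp and 5.49% for peaks of score 100 or more. In 107 of the 158 it included a peak with C/EBPα, and 104 of these 107 members had C/EBPα in the region. The definition largely sets that number, since a peak with C/EBPα brings its own C/EBPα peak. Of all peaks with C/EBPα in H3K4me1, 98.7% had a C/EBPα peak touching their region. In the other 51 of the 158, all Hoxa9 peaks of the region were members, and 15 of these 51 had C/EBPα there. Most member regions, 1843 of 1868, held 1 member and 25 held more. The region with most members, 3, lay at chromosome 13 from 97721761 to 97727646 and also held 3 C/EBPα peaks and 1 further Hoxa9 peak; its members had fold enrichments from 4.70 to 5.91 and lay 569 to 1926 bp from C/EBPα. A region at chromosome 7 from 133770561 to 133780683 spanned 10123 bp with 2 members, of fold enrichment 4.24 and 11.17, and 0 C/EBPα peaks. Another, at chromosome 15 from 66684787 to 66692749, held 2 members and 2 C/EBPα peaks.

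The 10 members with the highest score had fold enrichments from 23.51 to 38.33 and 150 to 224 tags. In 7 of them the summit was covered by H3K4me1, and 4 had C/EBPα in the same region. The first, at chromosome 15 from 64089147 to 64090412, had 221 tags, a score of 2036.01 and a fold enrichment of 38.33. It sat on a region of 901 bp, 118 bp from its edge, with H3K27me3 254 bp away and regions of that mark on both sides, and the nearest C/EBPα summit at 15431 bp. The member at chromosome 9 from 119847225 to 119848392 also had H3K27me3 on both sides, with 160 tags, a fold enrichment of 32.17, the nearer H3K27me3 region at 203 bp and C/EBPα at 13392 bp. A member at chromosome 11 from 49744937 to 49745989, of fold enrichment 31.74, was the most isolated of the 10 from C/EBPα, at 42142 bp, and lay near the centre of a region of 2672 bp.

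Other members of high score lay close to C/EBPα without touching it. The second, at chromosome 19 from 30377473 to 30378879, had 224 tags and a fold enrichment of 35.90, and its region of 3617 bp held 1 C/EBPα peak with its summit 1961 bp away. A member of 35.37-fold enrichment on chromosome 11 (4236455 to 4237759) lay in a region of 6854 bp that held 2 C/EBPα peaks and another Hoxa9 peak; 64 bp separated it from the nearer C/EBPα peak, with the summits 969 bp apart. At chromosome 4 from 102711427 to 102712696 the gap was 126 bp and the fold enrichment 23.51, and at chromosome 11 from 109611293 to 109612435 the gap was 357 bp and the fold enrichment 26.96. Next in score among members with C/EBPα in the region was a peak at chromosome 15 from 27599799 to 27600978, of fold enrichment 17.33, near the centre of a region of 14287 bp with 4 C/EBPα peaks.

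The other 3 of the 10 had no C/EBPα in the region. The member at chromosome 9 from 121585846 to 121587011, of fold enrichment 33.72, lay wholly inside a region of 3958 bp with C/EBPα 2166 bp away, beyond it. On chromosome 8 (70637689 to 70638871, 26.00-fold), the summit fell in an uncovered stretch and C/EBPα was 3593 bp away. On chromosome 1 (64912217 to 64913695, 25.05-fold), the summit was 44 bp inside the edge of a region of 2459 bp and C/EBPα was 9490 bp away.

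**Figure D5:**
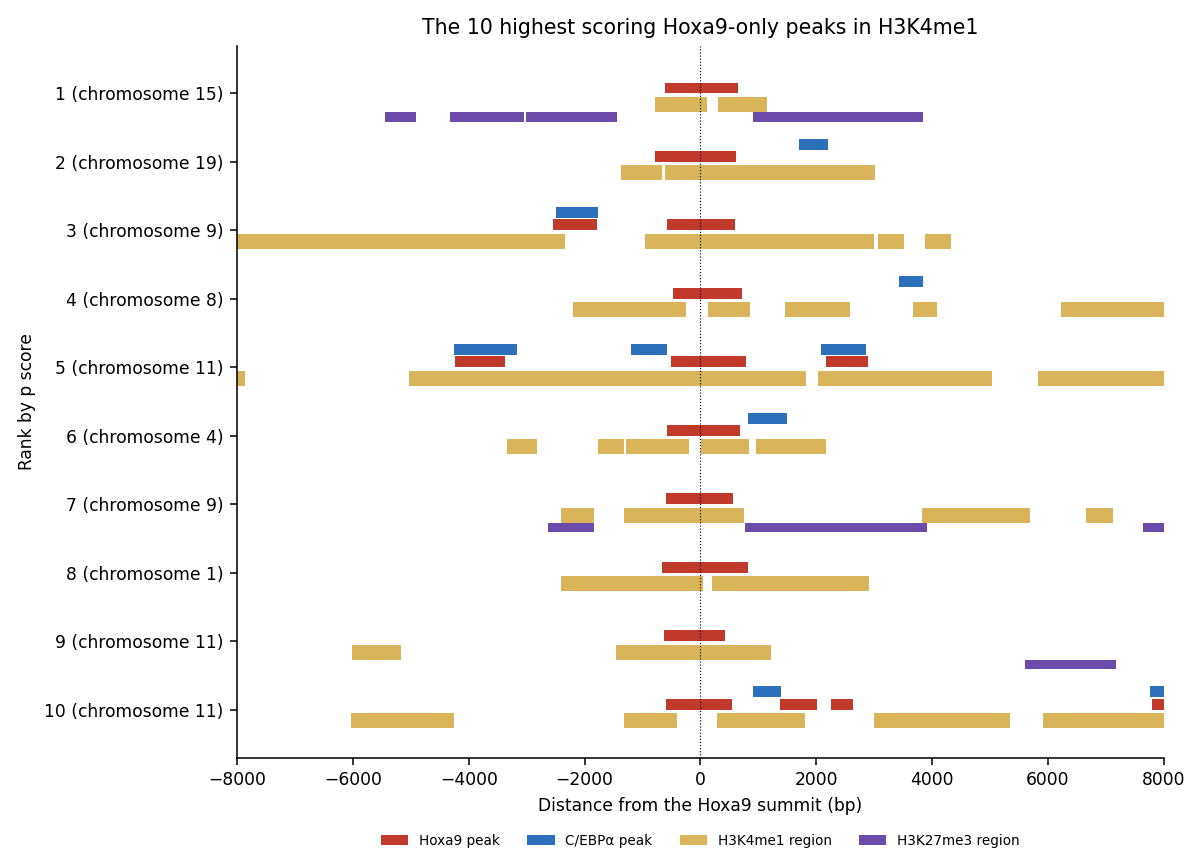
The 10 members with the highest p score (rank and chromosome on the vertical axis), each drawn to scale in bp from its Hoxa9 summit (horizontal axis, dotted line at the summit). Bars show Hoxa9 peaks (red), C/EBPα peaks (blue), H3K4me1 regions (ochre) and H3K27me3 regions (purple); ranks 1 and 7 have H3K27me3 on both sides, the nearest at 254 and 203 bp.

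The 5 members farthest from C/EBPα had fold enrichments from 4.05 to 6.86 and 17 to 47 tags. The farthest, 2581573 bp from a C/EBPα summit, lay on chromosome 14 (start 115442856, end 115443352) with 21 tags. The second was 2557361 bp away on chromosome 12 (start 49954519, end 49955498), with 47 tags and an uncovered summit. The other 3, on chromosomes X, 1 and 14, were 1395963, 597425 and 551680 bp away. As a group, the 188 members at 50000 bp or more had a median fold enrichment of 6.39 and 31.5 tags, close to the values over all members. Their regions were narrow, with a median of 1195 bp, against 2822 bp for the 228 members at 1000 to 2000 bp. The 89 members closer than 1000 bp had a median fold enrichment of 5.49 and 22 tags, and 77.5% of them had C/EBPα in the region. Their median width was 518 bp, against 627 bp over all members. A member cannot touch a C/EBPα peak, so summits this close favour narrow peaks, which had few tags. How far that accounts for their lower strength was not tested.

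The 5 members with the nearest C/EBPα summits had 18 to 37 tags and widths of 445 to 683 bp, where the rule again favours narrow peaks. The closest, at chromosome 2 from 38678326 to 38678770, had 18 tags and its summit 329 bp from that of C/EBPα, which stood outside its region. The following 4, on chromosomes 6, 9, 7 and 19, had summits 433, 452, 456 and 475 bp apart and 22 to 37 tags, and 3 of these 4 had C/EBPα in the region.

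In the 5 widest H3K4me1 regions with a member, C/EBPα was present in each, 1969 to 20544 bp away. The widest of all, at chromosome 8 from 126774978 to 126800644 with 25667 bp, held a member of fold enrichment 10.53 and 78 tags, 20544 bp from the nearest C/EBPα summit. In the next, at chromosome 5 from 136962195 to 136982537, a member of fold enrichment 6 was 14077 bp from C/EBPα. The other 3, on chromosomes 9, 17 and 6, spanned 18505, 17500 and 17286 bp, with distances of 3175, 7527 and 1969 bp. The region on chromosome 6, from 38769311 to 38786596, held 4 C/EBPα and 3 Hoxa9 peaks, of which 1 was a member. Most C/EBPα peaks beside a member, 5, were found at chromosome 7 from 108207927 to 108224314, where the member was enriched 6.32-fold and the nearest of them was 2625 bp away.

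H3K27me3 was distant from most members, at a median of 75013 bp, but not from all. A region of it lay within 1000 bp of 70 members, 3.70% (2.89 to 4.65), against 3.03% of peaks with C/EBPα and 3.17% of Hoxa9-only peaks outside H3K4me1. Within 10000 bp the shares were 12.8% of members, 11.5% of peaks with C/EBPα and 13.9% of Hoxa9-only peaks outside H3K4me1, with overlapping intervals. The nearest Hoxa9 neighbour of a member was a median of 34959 bp away, against 30337 bp for peaks with C/EBPα and 114549 bp for Hoxa9-only peaks outside H3K4me1, and it overlapped C/EBPα in 58.4% of members, 60.1% of peaks with C/EBPα and 52.1% of Hoxa9-only peaks outside H3K4me1. Over the whole Hoxa9 list 43.1% of peaks had no C/EBPα, so the member value is near that of the list.

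Members were spread over all chromosomes. They formed between 22.8% (chromosome 19) and 34.2% (chromosome 7) of the Hoxa9 peaks of an autosome, with a median of 28.7% over 19 autosomes. On X they formed 13.0%, 17 of 131 peaks, in regions with a median width of 660 bp against 1899 bp over the autosomal members. Over autosomes the share with C/EBPα in the region lay between 6.38% (chromosome 19) and 24.3% (chromosome 2), and on X it was 5.88%, 1 of 17 members, while the best score of an autosome lay between 386.01 (chromosome 14) and 2036.01 (chromosome 15).

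Peaks at the limits of the rule are given as a description. The least common stretch with H3K4me1 was 2 bp, in a member on chromosome 16 (start 57122766) and a pair on chromosome 15 (starts 62009185 and 69444322), with 20, 33 and 29 tags. Just outside were Hoxa9-only peaks on chromosomes X, 3 and 4 with H3K4me1 beginning 1, 6 and 6 bp away and 19, 18 and 33 tags. In all, 42 members had under 100 bp of H3K4me1 and 45 Hoxa9-only peaks outside had it within 100 bp. Toward C/EBPα the closest members, on chromosomes 2, 14 and 14, were 0, 1 and 4 bp from its edge, and the peaks just outside, on chromosomes 19, 2 and 11, shared 1, 3 and 4 bp with it. Their summits were 595, 727 and 755 bp from C/EBPα in those members and 813, 617 and 604 bp in those peaks. There were 29 members less than 100 bp from a C/EBPα peak and 48 peaks with C/EBPα that shared under 100 bp with it. Toward H3K27me3 the closest members were 9, 21 and 28 bp away, and the peaks just outside, which are among 30 Hoxa9-only peaks that touched both marks, shared 14, 26 and 28 bp with it.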

How the data were processed

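The submitters' processing notes name the build mm9 and the tools MACS 1.4, BWA 0.6.2 and CASAVA 1.8.2. No source used here gives the caller's settings or its control. Each deposited list gave, per the file headers, positions, width, summit offset and 4 values: tag counts (whole tags per peak, not normalized), a p score of 10 times the −log10 p-value, a linear fold enrichment ratio and a false discovery rate in percent, all made by the authors per library. Starts were taken to count from 1 (each width is end minus start plus 1), and the summit was placed at start plus offset minus 1.

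From these lists, overlaps of at least 1 bp, gaps and distances were computed with Python 3.11.15, numpy 2.4.6, pandas 2.3.3 and scipy 1.17.1, in code that was checked on simulated intervals. Figures used matplotlib 3.10.9. Shares carry exact Clopper-Pearson intervals at 95%. Depth per library is unknown, because the lists hold tags in peaks only. No paired analysis was possible because each group had 1 library. The named peaks were the 10 of highest score, the 5 of highest score with and without C/EBPα in the region, the 5 nearest to and farthest from C/EBPα, the 5 in the widest regions, the 3 regions with most members and most C/EBPα, and the 3 peaks on each side of every limit. Ties went by fold enrichment, then position. The members, lists and measures were chosen with earlier results of these data known. Sequences and genes were not used here, since the tables at hand were of GRCm38.p6.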

Additional observations from a re-analysis of the deposited data

How the results depend on the processing

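No paired analysis was possible because each group had 1 library. Over 100 alternatives to 11 results, 58 stayed within the interval of the value (within 1.5 times for the number of members) and 42 moved. The results are counts, shares and medians with no direction. With H3K27me3-touching peaks kept, and without chromosome X, no result moved. Counting C/EBPα in any touched region, chosen after seeing the data, gave 18.8%. With no C/EBPα peak within 500 bp, members were 26.6% of Hoxa9 peaks, 12.5% had C/EBPα in the region and the median C/EBPα distance was 9780 bp. With overlap replaced by a C/EBPα summit within 200 bp, these were 38.7%, 37.5% and 4358 bp, with medians of 32 tags, 654 bp of peak width and 2031 bp of region width. Requiring a covered summit gave 24.6% of Hoxa9 peaks, a region width of 2092 bp and, by construction, 100% of summits covered. A Hoxa9 score of 100 or more left 874 members, 25.9% of the 3375 Hoxa9 peaks that pass it, with medians of 7.72-fold, 45 tags, 775 bp of peak width, 2016 bp of region width and a relative position of 0.67; 83.1% of summits were covered and 5.49% had another Hoxa9 peak in the region. A fold enrichment of 5 or more in all lists gave 1335 members, 26.7% of the 5009 Hoxa9 peaks that pass it, 6.67-fold, 36 tags, 697 bp, 2252 bp of region width, a relative position of 0.66 and a C/EBPα distance of 9740 bp. The upper 50% of each list by score gave 1173 members, 35.7% of the 3289 Hoxa9 peaks kept, 8-fold, 48 tags, 803 bp, 2290 bp of region width, a relative position of 0.67 and a C/EBPα distance of 14566 bp, with 13.4% having C/EBPα and 6.65% another Hoxa9 peak in the region. Joining H3K4me1 regions across gaps of up to 1000 bp gave a region width of 3455.5 bp, 92.8% of summits covered, 32.7% with C/EBPα and 17.6% with another Hoxa9 peak in the region. The share with C/EBPα in the region thus ran from 12.5% to 37.5% and depended on how overlap and regions were defined. The 37.5% and the 4358 bp count C/EBPα peaks that overlap the Hoxa9 peak itself, and in the other settings the highest share was 32.7%. Settings that cut every list also drop C/EBPα calls, and so admit Hoxa9 peaks that overlap a dropped call. Sites too weak to be called are missing from the lists, and without replicate libraries no value here has an error between cultures.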
